A study of Sus scrofa with 6 samples.

Results

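The genes of the pig (Sus scrofa) mitochondrial genome were examined in 3 embryonic stem cell lines by bulk sequencing of poly(A) RNA. The members were all 37 genes that the deposited table of 31908 genes places on chromosome MT, which are 13 protein-coding genes, 2 rRNA genes and 22 tRNA genes. PA_1 and PA_3 are parthenogenetic lines, derived from eggs that were activated with no sperm, and IVF_1 is a line from in vitro fertilisation. All 3 lines carry the genotype label WT and are labelled FIW after their serum-free culture, and the labels give no passage or age. Each line gave 2 libraries, and the labels do not say whether these came from separate cultures, so p-values measure the spread between libraries, which may be technical. Each kind of embryo is represented by so few lines that a comparison here is one of lines and not of the embryos' origin.

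Mitochondria keep a small circular genome of their own, which passes to the offspring from the egg and is present in many copies per cell. Its protein genes encode core subunits of the respiratory chain and of ATP synthase, the enzyme that makes ATP from the proton gradient, and its rRNA and tRNA genes serve the translation of these subunits inside the organelle. Both strands are transcribed as long precursors that are cut mainly at the tRNAs lying between the other genes, so neighbouring genes share a precursor and their mature levels also depend on processing and decay. ATP8 with ATP6, and ND4L with ND4, overlap and are carried on shared messenger RNAs. Most mitochondrial messenger RNAs receive poly(A) tails, while in human cells the RNA of ND6 has little or no tail.

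Library totals ran from 15248306 to 28575817 counts, and libraries of a line correlated at 0.995 to 0.997 (Pearson, log2(CPM + 1), 15197 genes tested) and libraries of different lines at 0.965 to 0.982. The 8 pluripotency markers checked were all detected. Their summed level was 3543 to 3729 CPM (counts scaled to a common library size with TMM factors) in PA_1, 3630 to 3698 in PA_3 and 5618 to 5681 in IVF_1. In PA_3 against IVF_1, 1 of the 8 was higher and 5 lower, against 25.9% and 26.2% of all genes tested. Their log2 fold changes ran from -2.83 to 0.58, with a median of -0.71. In PA_1 against IVF_1, 0 were higher and 6 lower, against 15.3% and 16.1% of all genes tested, with a median of -0.41. Of 15 fibroblast markers, as feeder cells would bring, 0 were at 0 counts in every library and 4 (COL6A3, DCN, LUM and POSTN) stayed under 1 CPM in each library. The summed fibroblast marker level was 678 to 794 CPM in PA_1, 895 to 934 in PA_3 and 628 to 633 in IVF_1, which is highest in PA_3, the line with the highest mitochondrial share below, and the part of this difference in the results was not tested. The 11 fibroblast markers tested went both ways in PA_3 against IVF_1, with 4 higher, 4 lower and a median log2 fold change of -0.1 in a range from -4.63 to 3.43.

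Of the 37 genes, 15 passed the filter on low counts, which were all 13 protein genes and both rRNA genes. The table names the protein genes and gives the rRNA genes by identifier and biotype only. In genome order on build Sscrofa11.1, the rRNA genes ENSSSCG00000018061 (MT, 1246 to 2205) and ENSSSCG00000018063 (2274 to 3844) come first, followed by ND1 (3922 to 4876), ND2 (5087 to 6128), COX1 (6511 to 8055), COX2 (8203 to 8890), ATP8 (8959 to 9162), ATP6 (9120 to 9800) and COX3 (9800 to 10583). ND3 (10653 to 10998), ND4L (11069 to 11365), ND4 (11359 to 12736), ND5 (12935 to 14755), ND6 (14739 to 15266) and CYTB (15342 to 16481) follow. ND6 is the protein gene on the minus strand, and its last 17 bases overlap the end of ND5, so without the counter's strand setting reads from that overlap cannot be told apart. The overlap is 43 bases for ATP8 and ATP6, 7 bases for ND4L and ND4, and 1 base for ATP6 and COX3.

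All 22 tRNA genes had 0 counts in all 6 libraries. These genes span 59 to 75 bases, and the 194 genes of the same span outside the mitochondrial genome also had 0 counts. Of the 732 genes outside MT that span up to 100 bases, 0 had a count in any library, against 76.0% of the 29682 genes that span more than 300 bases. A count of 0 allows up to 3 counts per library, or 0.105 to 0.197 CPM by library total, for what was recorded, and for genes of this length it does not give the level of tRNA in the cells.

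Mitochondrial genes took the largest share of counts in PA_3. Their share was 12.23% and 12.15% in the PA_3 libraries, 7.97% and 9.65% in PA_1, and 7.67% and 8.29% in IVF_1. Both PA_3 libraries lay above the other 4, while the PA_1 and IVF_1 libraries overlapped. In bulk RNA, a different number of cells of a type and a different amount of RNA per cell cannot be told apart, and the number of mitochondrial genomes per cell was not measured. The COX genes of complex IV, the cytochrome c oxidase, made up most of the share, with 7.25% ± 0.087 of all counts in PA_3, 5.33% ± 0.67 in PA_1 and 4.63% ± 0.23 in IVF_1. Errors of levels are SDs throughout, with n = 2 libraries in each line. The 7 ND genes of complex I, the NADH dehydrogenase, took 3.34% ± 0.082 in PA_3, 2.25% ± 0.32 in PA_1 and 2.15% ± 0.13 in IVF_1. The rRNA genes, which poly(A) selection recovers poorly, took 0.0368% ± 0.0007, 0.0499% ± 0.0073 and 0.0451% ± 0.0046 in PA_3, PA_1 and IVF_1.

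**Figure D1:**
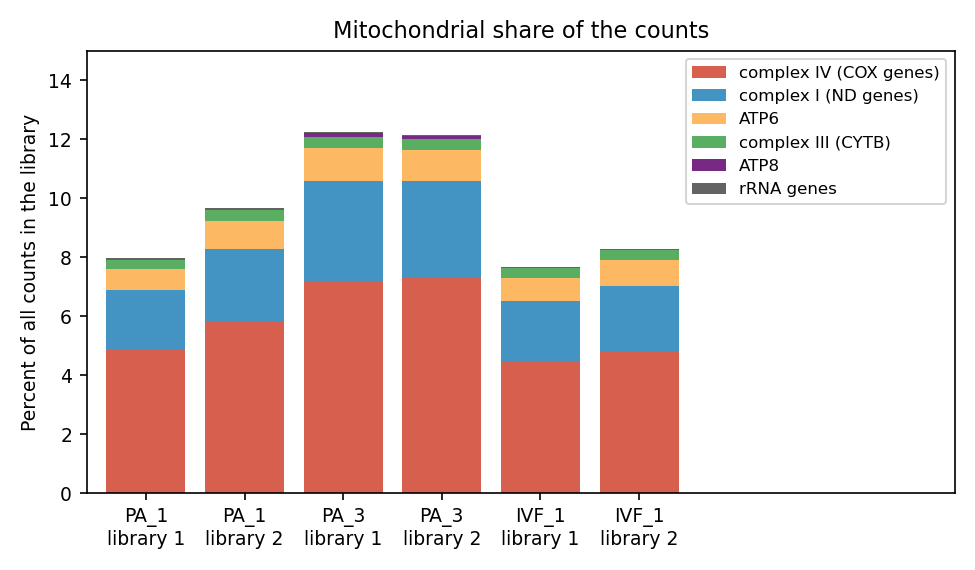
Percent of all counts (y axis) taken by mitochondrial genes in each of the 6 libraries (x axis), with colours for the genes of each complex, ATP6, ATP8 and the rRNA genes. The PA_3 bars reach 12.23% and 12.15%, above the other 4 libraries, and ATP8 is visible as a band in PA_3 but not in PA_1 or IVF_1.

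Most mitochondrial protein genes were higher in the parthenogenetic line PA_3 than in the fertilised line IVF_1. Of the 13 protein genes, 11 rose and 0 fell, with ND1 and ATP8 furthest from the rest (edgeR quasi-likelihood test, Benjamini-Hochberg adjusted p under 0.05 over all genes). Over all 15197 genes tested, 25.9% were called higher and 26.2% lower in this comparison. The median log2 fold change of the protein genes was 0.62, beside 0.0041 for all genes tested. All 13 had both PA_3 libraries above both IVF_1 libraries, a pattern that 39.7% of all genes tested showed. ND4L and CYTB did not pass the test, and 1 of the 2 rRNA genes fell.

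ND1, a core membrane subunit of complex I, had 6282 and 6299 CPM in PA_3, 1926 and 2378 CPM in PA_1, and 2143 and 2298 CPM in IVF_1. The PA_3 libraries stood far above the other 4, which overlapped. The log2 fold change of PA_3 against IVF_1 was 1.5 (SE 0.086, adjusted p = 7.5e-10, a 2.83-fold difference). ND2, the next protein gene on the same strand and also a membrane subunit of complex I, had 5068 and 4932 CPM in PA_3 against 3091 and 3319 CPM in IVF_1. Its log2 fold change of 0.64 (SE 0.078, adjusted p = 3.9e-06) lay near the median of the protein genes. ND1 counts per 1000 ND2 counts were 1240 and 1277 in PA_3, 611 and 643 in PA_1, and 693 and 692 in IVF_1, so the order of these neighbours was turned around in PA_3.

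Of the other complex I genes, ND3, ND4, ND5 and ND6 also rose and ND4L did not pass the test. ND3, a small subunit, had 1105 and 1113 CPM in PA_3 against 616 and 635 CPM in IVF_1 (log2 fold change 0.83, SE 0.075, adjusted p = 1.5e-07). ND5, one of the proton-pumping subunits, rose by 0.56 (SE 0.092, adjusted p = 0.00012), and ND4, another of them, by 0.42 (SE 0.097, adjusted p = 0.0023). ND6, read from the other strand, had 2755 and 2678 CPM in PA_3 against 1689 and 1971 CPM in IVF_1, and its log2 fold change of 0.57 (SE 0.12, adjusted p = 0.0037) was as large as that of ND5, with which it overlaps.

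ND4L, a short complex I subunit that overlaps ND4, had 439 and 416 CPM in PA_3, 361 and 494 CPM in PA_1, and 390 and 375 CPM in IVF_1. Its PA_3 libraries lay above those of IVF_1 but inside the range of PA_1. The log2 fold change against IVF_1 was 0.16 (SE 0.12, adjusted p = 0.31). CYTB, the mitochondrial subunit of complex III, the cytochrome bc1 complex, had 3837 and 3696 CPM in PA_3, 2965 and 3818 CPM in PA_1, and 3230 and 3434 CPM in IVF_1. It too showed a small difference from IVF_1, with a log2 fold change of 0.18 (SE 0.094, adjusted p = 0.13). Both genes passed the test when a PA_1 library was left out of the shared estimate of spread: ND4L had an adjusted p of 0.0087 without replicate 1 and 0.0088 without replicate 2 of PA_1, and CYTB 0.0072 and 0.0073. Their fold changes stayed at 0.16 and 0.18.

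The genes of complex IV rose together in PA_3. COX1, which holds the catalytic centre of the enzyme, had 41202 and 41283 CPM in PA_3, 27357 and 33305 CPM in PA_1, and 25033 and 26341 CPM in IVF_1. No PA_3 library overlapped another line, and PA_1 replicate 2 lay between the lines. The log2 fold changes against IVF_1 were 0.68 for COX1 (SE 0.088, adjusted p = 7.8e-06), 0.75 for COX2, which receives electrons from cytochrome c (SE 0.095, adjusted p = 9.6e-06), and 0.62 for COX3 (SE 0.087, adjusted p = 2e-05).

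**Figure D2:**
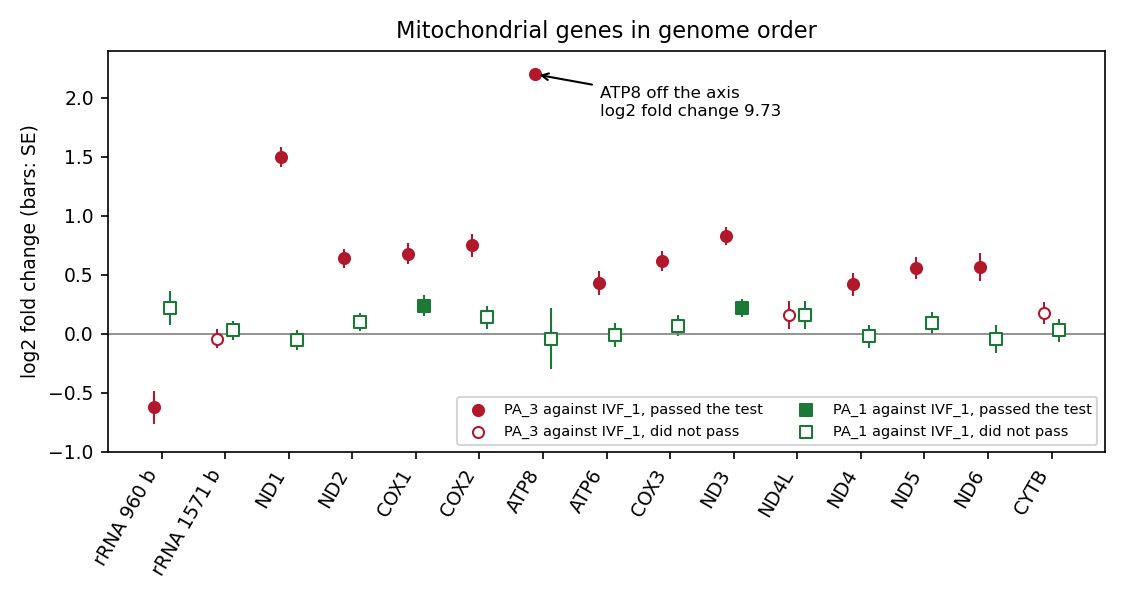
Log2 fold change (y axis, bars show SE) of each mitochondrial gene in genome order (x axis) for PA_3 against IVF_1 (circles) and PA_1 against IVF_1 (squares), with filled symbols for genes that passed the test. The PA_3 protein genes lie between 0.16 and 1.5 apart from ATP8, which is drawn at the top edge with its value of 9.73, and the PA_1 protein genes lie between -0.05 and 0.24. The comparisons share the IVF_1 libraries.

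ATP8 and ATP6 encode subunits of the membrane part of ATP synthase, ATP6 forming part of its proton path. ATP6 had 11402 and 10836 CPM in PA_3, 7122 and 9270 CPM in PA_1, and 7898 and 8636 CPM in IVF_1. It rose in PA_3 by 0.43 on the log2 scale (SE 0.1, adjusted p = 0.0029), less than the median of the protein genes. ATP8 had 27517 and 27211 counts in PA_3, 38 and 22 counts in PA_1, and 20 and 21 counts in IVF_1. ATP8 was thus recorded in each library, at a level in PA_3 that no other library approached. Its log2 fold change against IVF_1 was 9.73 (SE 0.12, adjusted p = 2.4e-19, an 847-fold difference). This SE was derived from the F value of the test, and with 20 and 21 counts in IVF_1 it is likely too small. For PA_1 against IVF_1 the SE of ATP8 was 0.26. ATP8 was picked out with earlier results of these data known.

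Measured against its neighbour, ATP8 gave 101 and 95.6 counts per 1000 ATP6 counts in PA_3. The same ratio was 0.181 and 0.129 for PA_1, and 0.153 and 0.159 for IVF_1. The ratio was close in the libraries of PA_1 and IVF_1 and stood apart in PA_3, while ATP6 differed 1.34-fold between PA_3 and IVF_1. ATP8 spans 204 bases, of which 161 lie outside ATP6. Fragments were read from both ends, 151 bases each, so a fragment may be longer than a read and may reach beyond ATP8. The deposited table does not say how reads that touch both genes were assigned. The mitochondrial sequence of each line was not examined, and whether the counts of ATP8 follow its RNA in each line was not tested, so the 847-fold value is a difference in recorded counts. The ATP8 difference adds little to the mitochondrial share, since the gene took 0.107% ± 0.0083 of the counts in PA_3 and 0.000129% ± 1.2e-05 in IVF_1.

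**Figure D3:**
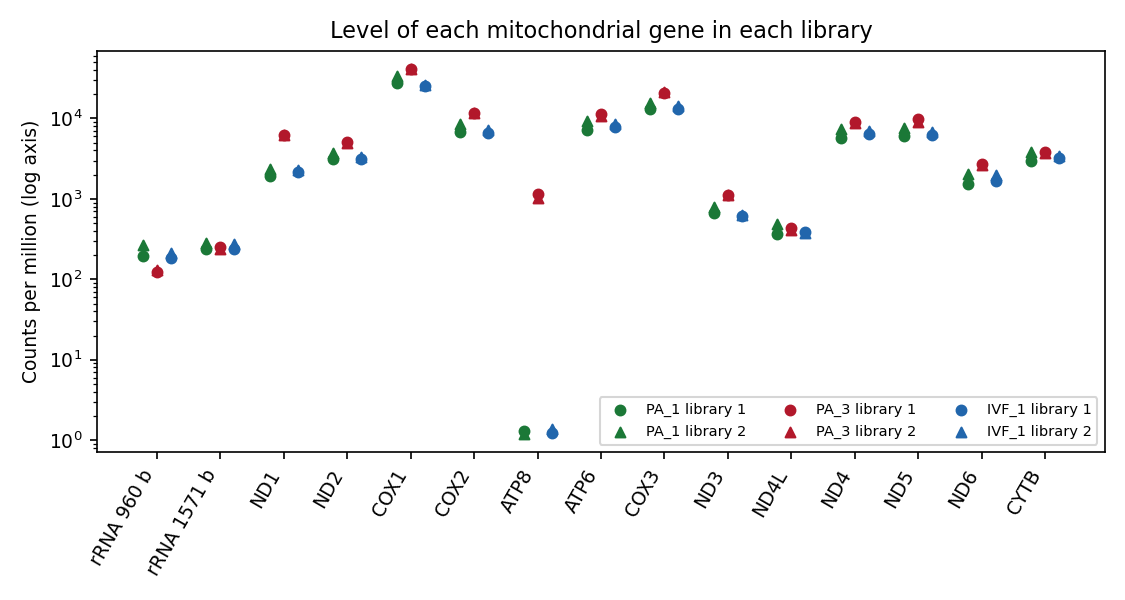
CPM on a log axis (y axis) for each mitochondrial gene in genome order (x axis), with 1 point for each of the 6 libraries. ATP8 lies near 1 CPM in PA_1 and IVF_1 (1.20 to 1.37) and at 1155 and 1036 CPM in PA_3, ND1 is also set apart in PA_3, and most other genes differ by less.

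The rRNA genes did not follow the protein genes. The gene ENSSSCG00000018061, of 960 bases, had 125 and 130 CPM in PA_3, 195 and 265 CPM in PA_1, and 183 and 210 CPM in IVF_1. Both PA_3 libraries lay below the other 4, and how many genes at large did so was not computed. The looser pattern, with both PA_3 libraries below both of IVF_1, was shown by 39.2% of all genes tested. Its log2 fold change of PA_3 against IVF_1 was -0.62 (SE 0.14, adjusted p = 0.0058). The gene ENSSSCG00000018063, of 1571 bases, had 255 and 240 CPM in PA_3, 239 and 281 CPM in PA_1, and 237 and 272 CPM in IVF_1, with overlap between all lines and a log2 fold change of -0.04 (SE 0.083, adjusted p = 0.74). Together the rRNA genes gave 3.06 and 3.0 counts per 1000 protein gene counts in PA_3, 5.65 and 5.73 in PA_1, and 5.48 and 5.86 in IVF_1.

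Within the protein gene counts, taken without ATP8, the parts of 7 of the 12 genes lay outside the other 4 libraries in both PA_3 libraries, and those of COX1, COX3, ND2, ND5 and ND6 overlapped. COX1 made up 33.6% ± 0.16 in PA_3, 35.3% ± 0.5 in PA_1 and 32.4% ± 0.47 in IVF_1. COX3 made up 17.1% ± 0.74, 16.8% ± 0.32 and 17.3% ± 0.13 in the same order. ND1 made up 5.12% ± 0.026 in PA_3, 2.5% ± 0.01 in PA_1 and 2.8% ± 0.0029 in IVF_1. CYTB moved the other way, with 3.07% ± 0.071 in PA_3, 3.93% ± 0.1 in PA_1 and 4.2% ± 0.03 in IVF_1. ND4L did too, with 0.348% ± 0.012, 0.495% ± 0.034 and 0.482% ± 0.037. ND1, COX2 and ND3 took a larger part, and CYTB, ND4L, ND4 and ATP6 a smaller part, in both PA_3 libraries than in any other library. For COX2 the parts were 9.47% ± 0.047 in PA_3, 8.87% ± 0.2 in PA_1 and 8.72% ± 0.04 in IVF_1. The parts have a fixed sum, so a larger part for ND1 lowers the parts of the other genes. In CPM, the log2 fold changes of PA_3 against IVF_1 were above 0 for CYTB (0.18), ND4L (0.16), ND4 (0.42) and ATP6 (0.43). None of these parts was tested, and how often genes at large stand apart in this way was not computed.

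Levels can be compared between genes only per length, and the authors' TPM and a count per annotated kilobase ordered the genes differently. By CPM per annotated kilobase, COX1 with 19632 ± 2722 and COX3 with 18389 ± 2457 stood first in PA_1. COX3 with 26868 ± 1072 and COX1 with 26694 ± 37.3 stood first in PA_3, and COX3 with 17502 ± 1015 and COX1 with 16626 ± 599 in IVF_1. Both genes were measured in the same libraries, so these SDs do not show how firm their order is, and it was not tested. ATP6 and COX2 came next in each line, with 12140 ± 767 for ATP6 and 10063 ± 553 for COX2 in IVF_1 and 16328 ± 587 and 16912 ± 29.0 in PA_3. ND4L with 1287 ± 34.9 and ND3 with 1808 ± 38.1 were the lowest protein genes in IVF_1 on this scale apart from ATP8, which stood at 6.33 ± 0.574. By the authors' TPM, ND3 with 8043 ± 285 and ND4L with 7474 ± 91.7 stood 7th and 8th of the 15 genes in IVF_1. The lowest protein genes there apart from ATP8 were ND1 with 5184 ± 302 and CYTB with 6226 ± 323, so which genes are lowest depends on the length used. In PA_3, ATP8 stood at 5370 ± 412 CPM per annotated kilobase, which was the 7th level of the 15 genes, below ND1 with 6587 ± 12.2.

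By the authors' TPM, ATP8 was the highest gene of the whole table in both PA_3 libraries. Its TPM was 87157 and 82949 in the PA_3 libraries, 125 and 104 in those of PA_1, and 113 and 131 in those of IVF_1. The authors' RPKM and the counts together show the length by which each gene was divided. For the 12 mitochondrial genes over 400 bases this length was 208 to 214 bases below the annotated one. For ATP8 it was 17.9 to 20.0 bases of 204, or 8.75% to 9.8%, for ND4L 87.9 to 92.5 of 297 bases and for ND3 134 to 139 of 346 bases. The scale therefore lifts the shortest genes most, and a given count of ATP8 weighs about as much as a far larger count of COX1.

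This touches the TPM of other genes, because TPM has a fixed sum. ATP8 alone took 8.72% and 8.29% of that sum in PA_3, against 0.0104% to 0.0131% in the other 4 libraries. The protein genes of the mitochondrial genome took 33.1% and 32.6% of TPM in PA_3, or 26.7% and 26.5% with ATP8 left out of the sum. They took 18.8% and 22.5% in PA_1 and 18.3% and 20.0% in IVF_1, so PA_3 stood highest on either reckoning. CYTB differed in direction between the scales. Its mean level in PA_3 was above IVF_1 in CPM (3767 ± 99.7 against 3332 ± 144) and below it in TPM (5827 ± 177 against 6226 ± 323). How much of this came from ATP8 was not tested.

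**Figure D4:**
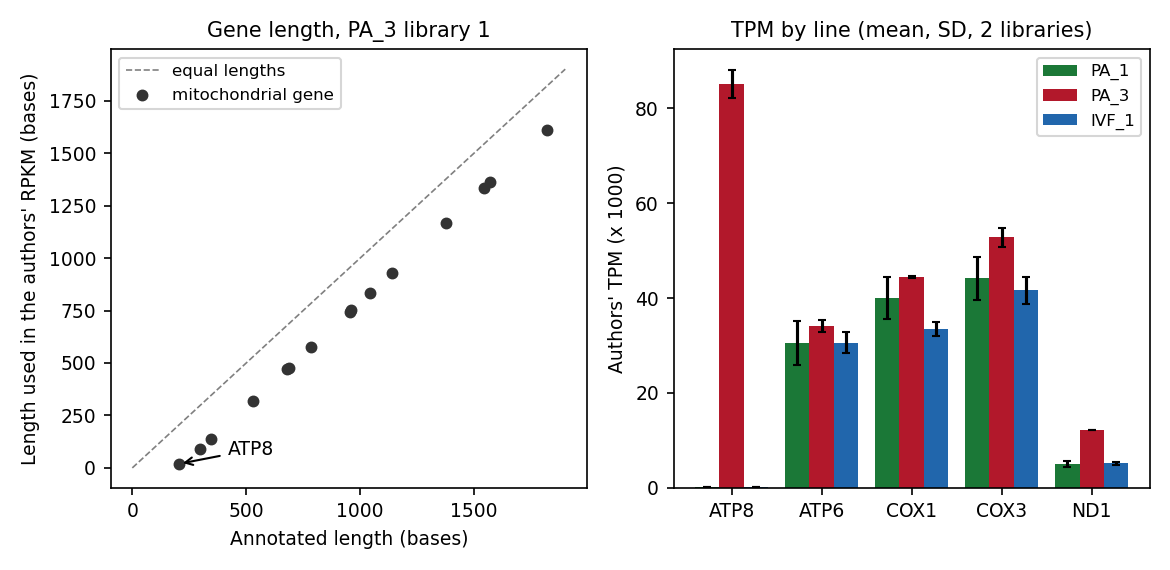
Left, the length used in the authors' RPKM (y axis, bases) against annotated length (x axis, bases) for the 15 mitochondrial genes with counts in PA_3 replicate 1, with a dashed line where the lengths would be equal. Right, the authors' TPM, divided by 1000, for 5 genes by line (bars, mean; error bars, SD of 2 libraries). ATP8 is divided by 19.1 bases and is the tallest bar in PA_3 and close to 0 in PA_1 and IVF_1.

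In PA_1, the other parthenogenetic line, mitochondrial protein genes were called higher against IVF_1 about as often as genes at large. Of the 13 protein genes, COX1 and ND3 rose and 0 fell, against 15.3% of all genes tested called higher and 16.1% called lower. The protein genes had a median log2 fold change of 0.07, beside 0.0034 for all genes tested. COX1 and ND3 were also the 2 genes whose PA_1 libraries both lay above those of IVF_1, a pattern in 32.4% of all genes tested. ND3 had 665 and 793 CPM in PA_1 against 616 and 635 CPM in IVF_1 (log2 fold change 0.22, SE 0.075, adjusted p = 0.034), and COX1 had a log2 fold change of 0.24 (SE 0.088, adjusted p = 0.047). ND1 stood at -0.05 (SE 0.085, adjusted p = 0.72) and ATP8 at -0.04 (SE 0.26, adjusted p = 0.93).

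Neither call in PA_1 held up against single libraries. In PA_1, replicate 2 was above replicate 1 in each of the 15 genes with counts except ATP8, for instance with 33305 against 27357 CPM for COX1. Without PA_1 replicate 2, COX1 had an adjusted p of 0.28 and ND3 of 0.21. Without IVF_1 replicate 1 these were 0.28 and 0.22, and without IVF_1 replicate 2 they were 0.13 and 0.13. The call of COX1 was also lost without PA_3 replicate 1 (adjusted p = 0.084) or PA_3 replicate 2 (0.08), which enter through the shared spread, and with the replicate block (0.061). Among all 15 genes, 9 were called higher and 0 lower without PA_1 replicate 1, and 0 higher and 4 lower without PA_1 replicate 2.

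Most mitochondrial protein genes were lower in PA_1 than in PA_3, a comparison that shares the PA_3 libraries with the first. Of the 13 protein genes, 0 were higher and 11 lower in PA_1, against 17.8% of all genes tested called higher and 19.0% called lower. The median log2 fold change of the protein genes was -0.55, beside 0.0017 for all genes tested, and 11 had both PA_1 libraries below both PA_3 libraries, as 33.8% of all genes tested did. ATP8 stood at -9.76 (SE 0.12, likely too small as above, adjusted p = 2.3e-19) and ND1 at -1.55 (SE 0.086, adjusted p = 8.8e-10). The other 9 lower genes ranged from -0.61 for COX2, ND3 and ND6 to -0.44 for COX1, ATP6 and ND4. The rRNA gene ENSSSCG00000018061 was higher in PA_1 (0.85, SE 0.14, adjusted p = 0.0018), with both PA_1 libraries above both of PA_3, as for 32.9% of all genes tested. CYTB stood at -0.15 (SE 0.094, adjusted p = 0.22) and ND4L near 0 (SE 0.12, adjusted p = 1.0), with overlapping libraries. Without PA_1 replicate 2 both were called lower (CYTB at -0.33, adjusted p = 0.00031, and ND4L at -0.23, adjusted p = 0.0048). Without PA_1 replicate 1, ND4L was called higher (0.21, adjusted p = 0.0081) and so was the rRNA gene ENSSSCG00000018063 (0.18, adjusted p = 0.036).

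The mitochondrial genome is copied, transcribed, processed and translated by proteins that the nucleus encodes, and 6 lists of nuclear genes were examined. Of their 167 tested genes, 77 fell (46.1%) and 19 rose (11.4%) in PA_3 against IVF_1. Of all genes tested, 26.2% fell and 25.9% rose. Of 20 tested genes of the nucleoid, replication and transcription, 5 rose and 8 fell in PA_3 against IVF_1, where 25.9% and 26.2% of all genes tested did, with a median log2 fold change of -0.15. TFAM, which packages mitochondrial DNA and starts transcription, had a level of 144 ± 2.97 CPM in IVF_1, 127 ± 21.0 CPM in PA_1 and 106 ± 9.58 CPM in PA_3 (-0.43, SE 0.097, adjusted p = 0.0017). TFB2M, which opens the promoter for the polymerase, fell by 1.02 (SE 0.14, adjusted p = 1.5e-05). POLRMT, the mitochondrial RNA polymerase, fell by 0.34 (SE 0.083, adjusted p = 0.0027), but had an adjusted p of 0.058 without PA_3 replicate 1. TWNK, the replicative helicase, fell by 0.28 (adjusted p = 0.0057), but had an adjusted p of 0.063 without PA_3 replicate 1 and 0.13 without IVF_1 replicate 1.

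Genes of this list also moved upward. TOP1MT, the mitochondrial topoisomerase, had 8.22 ± 1.30 CPM in PA_3 and 3.19 ± 0.49 in IVF_1 (1.37, SE 0.2, adjusted p = 2.2e-05). MGME1, an exonuclease of mitochondrial DNA, had 88.9 ± 0.952 CPM in PA_3 and 63.0 ± 3.24 in IVF_1 (0.50, SE 0.074, adjusted p = 3.5e-05). POLG, the catalytic subunit of the DNA polymerase, stood at -0.17 (SE 0.08, adjusted p = 0.088), and at an adjusted p of 0.041 without either PA_1 library.

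Genes of RNA processing and stability leaned downward, with 20 of 32 lower (62.5%) and 4 higher (12.5%) in PA_3, against 26.2% and 25.9% of all genes tested, and a median log2 fold change of -0.28. ELAC2, which cuts the 3′ ends of tRNAs from the precursor, stood at 56.4 ± 1.44 CPM in IVF_1, 41.5 ± 1.24 CPM in PA_1 and 28.9 ± 2.05 CPM in PA_3 (-0.97, SE 0.087, adjusted p = 1.3e-07). FASTKD5, which acts on precursor ends that no tRNA marks, stood at -0.98 (SE 0.11, adjusted p = 1.4e-06). PUS1, a pseudouridine synthase, stood at -0.77 (SE 0.11, adjusted p = 3.1e-05). LRPPRC, which stabilises mitochondrial messenger RNAs, stood at 266 ± 0.924 CPM in IVF_1, 215 ± 16.6 CPM in PA_1 and 205 ± 7.70 CPM in PA_3 (-0.37, SE 0.069, adjusted p = 2.6e-04). ELAC2, FASTKD5 and PUS1 were named for having the smallest p of the list in this comparison, so their shared direction is a description, and the 4 higher members reached up to 0.50. The list leaned downward in PA_1 against IVF_1 too, a comparison with the same IVF_1 libraries. There 12 of 32 were lower (37.5%) and 0 higher, against 16.1% and 15.3% of all genes tested, with a median log2 fold change of -0.17.

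Genes of the mitochondrial ribosome and its factors also leaned downward. Of 76 ribosomal protein genes tested, 35 fell and 4 rose in PA_3, against 26.2% and 25.9% of all genes tested, with a median log2 fold change of -0.21. MRPL15 (-0.65, SE 0.09, adjusted p = 1.6e-05) and MRPS23 (-0.61, SE 0.085, adjusted p = 1.7e-05) were among those that fell, and MRPL10 (0.96, SE 0.1, adjusted p = 7.1e-07) among those that rose. The ribosomal protein genes leaned as far downward in PA_1 against IVF_1, a comparison with the same IVF_1 libraries. There 30 of 76 fell (39.5%) and 2 rose (2.63%), against 16.1% and 15.3% of all genes tested, with a median log2 fold change of -0.22. Of 13 genes in the list of translation factors, 6 fell (46.2%) and 1 rose (7.69%) in PA_3 against IVF_1. PTCD3, a protein of the small ribosomal subunit that this list includes, stood at -0.54 (SE 0.07, adjusted p = 9.1e-06). MTIF2, an initiation factor, stood at -0.46 (adjusted p = 9e-04). TSFM, an elongation factor, stood at -0.42 (adjusted p = 0.0022), and at an adjusted p of 0.058 without IVF_1 replicate 1.

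The nuclear subunits of ATP synthase, the partners of ATP6 and ATP8, were called about as often as genes at large in PA_3 against IVF_1. Of 17 tested, 4 rose and 4 fell in PA_3 (23.5% each way, against 25.9% and 26.2% of all genes tested), with a median log2 fold change of 0.01. ATP5MC1, a gene for the rotating c ring, stood at 83.1 ± 5.41 CPM in IVF_1, 57.1 ± 7.02 CPM in PA_1 and 41.1 ± 5.89 CPM in PA_3 (-1.01, SE 0.1, adjusted p = 9.5e-07). ATP5F1B, the catalytic beta subunit, stood at -0.45 (SE 0.068, adjusted p = 4e-05), and ATP5PO, a subunit of the stalk, at 0.36 (SE 0.067, adjusted p = 3.1e-04). No nuclear subunit tested here came near the difference of ATP8, the list running from -1.01 to 0.36. In PA_1 against IVF_1, 0 of the 17 rose and 6 fell (35.3%), against 15.3% and 16.1% of all genes tested. In PA_1 against PA_3, 2 were higher (11.8%) and 6 lower (35.3%), against 17.8% and 19.0% of all genes tested.

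Of 9 biogenesis regulators tested, 4 fell and 1 rose in PA_3, beside 26.2% and 25.9% of all genes tested, with a median log2 fold change of -0.21. The coactivators PPRC1 (-0.82, SE 0.089, adjusted p = 1.1e-06) and PPARGC1B (-0.95, SE 0.18, adjusted p = 3.3e-04) fell, and NRF1, a factor that drives nuclear genes for mitochondrial proteins, had 70.5 ± 1.13 CPM in PA_3 and 56.0 ± 0.574 in IVF_1 (0.33, SE 0.077, adjusted p = 0.0018). PPARGC1A, the best known coactivator of this family, had 5 to 12 counts per library and was not tested.

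Of the 167 tested genes of the 6 nuclear lists, 19 rose (11.4%) and 77 fell (46.1%) in PA_3 against IVF_1, against 25.9% and 26.2% of all genes tested. Both counts of list genes were smaller without any single PA_3 or IVF_1 library and larger without a single PA_1 library. The share of all genes called in such fits is not given here, so this does not show whether the lean changed. In PA_1 against IVF_1, 4 rose (2.4%) and 57 fell (34.1%), where 15.3% and 16.1% of all genes tested did, and both comparisons share the IVF_1 libraries. Both counts for PA_1 against IVF_1 were smaller without either IVF_1 library, with the same limit. In PA_1 against PA_3, 23 were higher (13.8%) and 27 lower (16.2%), near the shares of all genes tested (17.8% and 19.0%). These counts too were smaller without either PA_3 library, with the same limit.

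**Figure D5:**
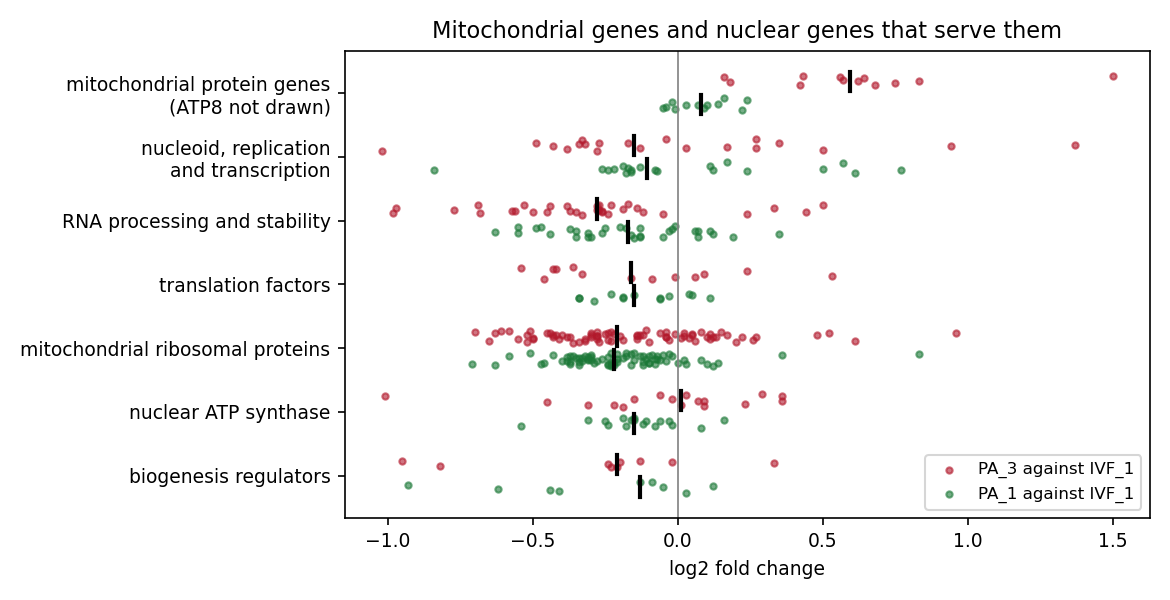
Log2 fold change (x axis) of single genes (points) in the mitochondrial protein genes and the 6 nuclear lists (rows), for PA_3 against IVF_1 and PA_1 against IVF_1, with black marks at the median of the genes drawn. In PA_3 the mitochondrial genes lie to the right of 0 while the medians of the nuclear lists lie at 0.01 or below.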

How the data were processed

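Per the submitters' processing notes, cutadapt 2.8, STAR 2.7.1a and genome build Sscrofa11.1 were used. Which gene counter, annotation release and strand setting were used is not given in the sources used here. Per the labels' protocols, 1 µg of total RNA was the input for oligo(dT) selection, and stranded libraries were read from both ends, 151 bases each. The authors deposited read counts per gene, RPKM (scaled by length and library total) and TPM (per length, with a fixed sum). The other 54 columns of per-sample values were not used.

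The counts were tested with edgeR 4.0.16 (glmQLFit, robust; glmQLFTest; TMM; two-sided) in R 4.3.3 over 6 libraries and 3 lines, which left 3 residual degrees of freedom. filterByExpr kept 15197 genes, and p-values were adjusted by Benjamini-Hochberg over all of them, with a threshold of 0.05. The test was checked only for recovering changes planted in data simulated from its own model. This does not check its rate of false calls or the spread between cultures. Each SE is the absolute log2 fold change divided by the square root of the F value of the test. Levels are CPM, mean ± SD of 2 libraries. The smallest exact permutation p that 4 libraries in pairs can give is 0.333. RPKM and counts gave the length used. Gene symbols came from the table for 16698 genes, from NCBI IDs for 1420 and from Ensembl IDs for 167. In the nuclear lists MTERF4, PRORP, MRM1 and ATP5MJ were not matched, MRPL53 had 0 counts, and TRMT10C stood on several rows, of which that with most counts was used.

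The members and lists were chosen with earlier results of these data known. Every mitochondrial gene could be named. The rule for nuclear genes took TFAM, POLRMT, TWNK, POLG, LRPPRC and PPARGC1A and the 3 genes per list with the smallest p in PA_3 against IVF_1. Alternatives were RLE scaling, scaling on genes outside the mitochondrial genome, DESeq2 1.42.0, no filter, fits of the compared lines only, a replicate block and leaving out each library. No sequences are shown.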

Additional observations from a re-analysis of the deposited data

How the results depend on the processing

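The numbers of mitochondrial calls in PA_3 against IVF_1 (11 higher, 1 lower) and in PA_1 against PA_3 (11 lower, 1 higher) were the same with RLE scaling, scaling outside the mitochondrial genome, DESeq2 and the replicate block, and in PA_3 against IVF_1 13 were higher with no filter and with only the compared libraries. Of 747 alternative values of single genes, 676 kept their direction and side of the threshold, 26 became and 14 ceased to be significant, and 31 changed sign. The labels do not say whether libraries with the same replicate number share a batch. Their deviations correlated at -0.136 for PA_1 with PA_3, 0.0857 for PA_1 with IVF_1 and -0.08 for PA_3 with IVF_1, which does not settle it. With the block, the nuclear lists gave 18 higher and 72 lower in PA_3 against IVF_1, 6 and 51 in PA_1 against IVF_1, and 26 and 24 in PA_1 against PA_3. A pairing with PA_3 numbers crossed, chosen after seeing the data, gave 1 higher and 11 lower mitochondrial genes and 28 higher and 34 lower list genes in PA_1 against PA_3.

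In PA_1 against IVF_1, 1 mitochondrial gene was higher with the compared libraries only, and leaving out single libraries gave 0 to 9 higher and 0 to 4 lower. It gave 1 to 3 higher in PA_1 against PA_3. For the nuclear lists it gave 10 to 22 higher and 47 to 92 lower in PA_3 against IVF_1, 2 to 6 and 21 to 67 in PA_1 against IVF_1, and 9 to 34 and 11 to 33 in PA_1 against PA_3, where DESeq2 gave 12 and 18. In TPM the mitochondrial share was 20.7% in PA_1, 32.9% in PA_3 and 19.2% in IVF_1, and ATP8 per 1000 ATP6 was 3.83, 2500 and 3.97, by the shorter lengths TPM divides by. The PA_3 share was 12.1% without ATP8. For the fits without single libraries, the share of all genes called is not given here.

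The values that changed sign under an alternative follow. In PA_1 against IVF_1, leaving out single libraries gave ENSSSCG00000018061 -0.0018 to 0.43, ENSSSCG00000018063 -0.08 to 0.15, ND1 -0.19 to 0.10, ND2 -0.01 to 0.21, COX2 -0.04 to 0.31, ATP8 -0.13 to 0.05, ATP6 -0.20 to 0.16, COX3 -0.06 to 0.20, ND4L -0.07 to 0.37, ND4 -0.21 to 0.15, ND5 -0.07 to 0.25, ND6 -0.25 to 0.15 and CYTB -0.16 to 0.20. ATP6 was at 0.0027 with the compared libraries only. In PA_3 against IVF_1, ENSSSCG00000018063 ranged from -0.13 to 0.06. In PA_1 against PA_3, ENSSSCG00000018063 ranged from -0.04 to 0.18, ND4L from -0.23 to 0.21 and CYTB from -0.33 to 0.02. ND4L there was at 0.0031 with RLE scaling, 0.0015 with scaling outside the mitochondrial genome, 0.0019 with DESeq2 and 0.0012 with the compared libraries only. The cause was not tested. With 2 libraries per line, differences of the size of the PA_1 spread could not be resolved.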
